A study of Homo sapiens with 151 samples.

Results

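Promoters of long noncoding RNA (lncRNA) genes were examined in the preferred peak lists of DNA-associated proteins (DAPs) in HepG2, a human hepatocellular carcinoma cell line. A promoter was taken as 500 bp on either side of the canonical transcription start site (TSS) of a GENCODE 44 gene on hg38, which gave 18866 lncRNA promoters among 38899 promoters of lncRNA and protein-coding genes. They were split by their surroundings: 3429 have a protein-coding canonical TSS within 2 kb and are called near-coding, and 15437 do not and are called lone. The rule places a promoter in its class from the annotation alone. The series holds 151 samples, all from HepG2 crosslinked with formaldehyde: 127 ChIP-seq samples, each of 1 FLAG-tagged DAP pulled down with the Anti-FLAG M2 antibody, and 24 input libraries sequenced without pulldown. Of the 127 peak lists, 121 are the preferred data set of their DAP (106 transcription factors, TFs, and 15 DAPs that are not TFs) and are used in all comparisons. The tagging follows CETCh-seq, in which the epitope is written into the DAP's own gene, and the labels do not say whether a tagged line is 1 clone. The preferred lists hold 1410609 peaks, from 195 to 61748 per list with a median of 8680, and no read depth. Every DAP has 1 list with no replicate list, no list comes from untagged cells, and the labels name no treatment.

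An lncRNA is a transcript longer than a short RNA that is not translated into a known protein, and is made by the same RNA polymerase that makes messenger RNA. Many lncRNA genes start a short way from a protein-coding gene and run in the opposite direction from a shared nucleosome-free region, so that one stretch of DNA serves a pair of genes. Others start on their own between or inside genes, and several of these serve as hosts for small nucleolar RNAs (the SNHG genes) or microRNAs. Promoters that are rich in CpG dinucleotides tend to be open in most cell types, whereas CpG-poor promoters tend to be tissue restricted.

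The DNA at some of the most often bound lone promoters is shown first. Whether its motifs go with the list counts of these promoters was not tested. Sequences named promoter are the RefSeq promoters (GRCh38.p14, 250 bases before to 50 after the RefSeq start) and were the same letters as hg38, and RefSeq promoters matched 2625 of the lone genes by symbol. Sequences named summit window are 300 bases of hg38 centred on the median peak summit. All run 5′ to 3′ on the strand of the lncRNA. Capitals mark the motifs searched on both strands: the ETS motif CCGGAAG, the GC box GGGCGG, the NRF1 motif GCGCATGC, the E-box CACGTG, the CCAAT box, the AP-1 motif TGANTCA, the octamer ATGCAAAT, the TATA box TATAAA, the CRE TGACGTCA, the YY1 motif AAGATGGC, the HNF4 motif CAAAGTCCA, and TTCAGCACC followed after 2 to 9 bases by GGACAG, which are the left and right parts of RE1, the element bound by the neuronal gene repressor REST. None of these motifs holds another. The RE1 letters were added after the sequences had been seen.
MIR7-3HG promoter (chr19:4768855-4769154, plus strand): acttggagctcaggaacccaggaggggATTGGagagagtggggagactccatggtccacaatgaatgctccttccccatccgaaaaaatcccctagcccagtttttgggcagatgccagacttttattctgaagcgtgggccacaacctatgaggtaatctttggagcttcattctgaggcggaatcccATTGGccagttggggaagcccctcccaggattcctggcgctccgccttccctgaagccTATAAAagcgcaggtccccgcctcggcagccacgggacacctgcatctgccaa
ENSG00000267095 summit window (chr17:60139821-60140120, minus strand): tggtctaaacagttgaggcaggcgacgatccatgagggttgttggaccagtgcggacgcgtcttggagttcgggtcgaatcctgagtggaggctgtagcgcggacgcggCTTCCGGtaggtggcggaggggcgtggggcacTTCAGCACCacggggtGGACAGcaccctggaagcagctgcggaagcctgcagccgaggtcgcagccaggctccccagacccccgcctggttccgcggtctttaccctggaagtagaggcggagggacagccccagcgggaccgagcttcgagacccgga
ENSG00000260100 summit window (chr9:37079388-37079687, minus strand): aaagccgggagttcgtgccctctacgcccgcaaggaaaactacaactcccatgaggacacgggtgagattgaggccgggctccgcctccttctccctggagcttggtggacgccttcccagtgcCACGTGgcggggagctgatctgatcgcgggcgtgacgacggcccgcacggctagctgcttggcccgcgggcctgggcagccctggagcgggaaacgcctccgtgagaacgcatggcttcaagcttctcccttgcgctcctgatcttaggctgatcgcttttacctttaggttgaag
SNHG17 promoter (chr20:38435279-38435578, minus strand): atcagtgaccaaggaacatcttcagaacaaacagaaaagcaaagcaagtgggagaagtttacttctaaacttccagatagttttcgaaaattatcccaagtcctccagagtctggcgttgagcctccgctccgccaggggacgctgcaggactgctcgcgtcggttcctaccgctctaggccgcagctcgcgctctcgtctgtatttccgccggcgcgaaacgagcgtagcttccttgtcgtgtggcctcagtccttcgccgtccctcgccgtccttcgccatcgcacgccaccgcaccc
SNHG11 promoter (chr20:38446404-38446703, plus strand): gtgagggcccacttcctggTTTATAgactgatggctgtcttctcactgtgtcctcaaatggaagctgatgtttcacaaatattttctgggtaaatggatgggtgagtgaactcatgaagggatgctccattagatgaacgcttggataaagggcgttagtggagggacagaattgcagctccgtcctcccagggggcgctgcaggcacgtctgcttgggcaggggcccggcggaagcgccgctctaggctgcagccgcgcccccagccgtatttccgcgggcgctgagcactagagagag
At MIR7-3HG the promoter holds a TATA box and 2 CCAAT boxes but none of the peak summits, which lie downstream of it. ENSG00000267095 holds the RE1 letters once and an ETS motif, beside 101 summits. ENSG00000260100 holds an E-box, the site of MYC-related and other basic helix-loop-helix proteins, beside 108 summits. The 2 small nucleolar RNA hosts hold 86 (SNHG17) and 62 (SNHG11) summits, no motif at SNHG17 and the TATA letters on the opposite strand at SNHG11, whose RefSeq start lies downstream of the GENCODE start.

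Most lone promoters had no peak of any preferred list, and most near-coding promoters had several. Of the 15437 lone promoters, 2894 (18.7%, 95% Wilson interval 18.1 to 19.4) overlapped a peak of at least 1 list, against 2709 of 3429 near-coding promoters (79.0%, 77.6 to 80.3) and 13611 of 20033 protein-coding promoters (67.9%, 67.3 to 68.6). Over all 38899 promoters the share was 49.4%. The share was 19 ± 6.04% (mean ± SD over 22 autosomes) for lone, 79.0 ± 4.70% for near-coding and 69.2 ± 6.33% for protein-coding promoters. Lone lay below protein-coding in 22 of 22 autosomes and near-coding above it in 22. Intervals cover counting error only, and lncRNA genes can share a locus: the 2894 bound lone promoters formed 2703 loci when TSSs within 1 kb were joined. A promoter counted as unbound has no listed peak, which at an unknown depth does not show that nothing binds there.

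**Figure D1:**
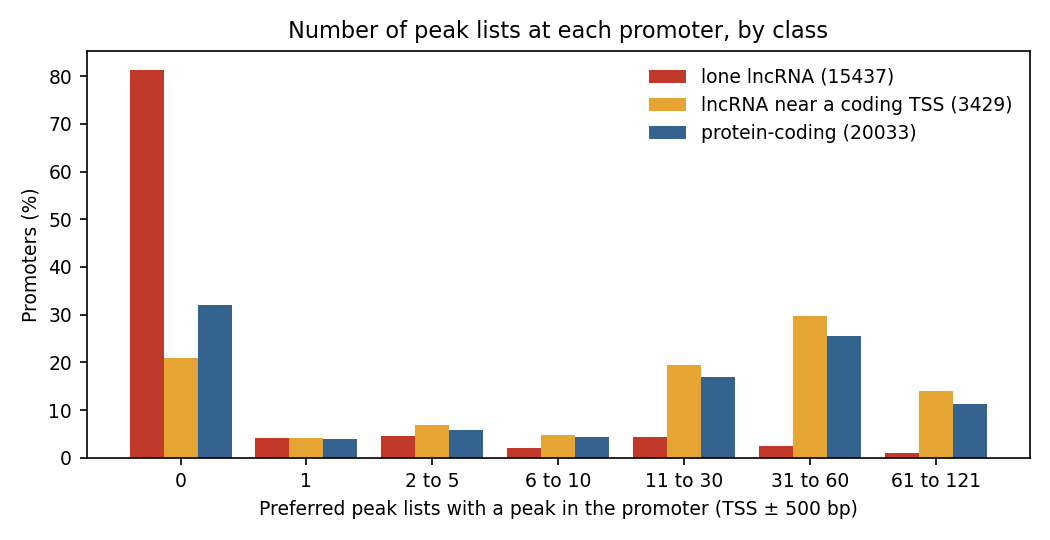
Percent of promoters (vertical axis) by the number of preferred peak lists with a peak within 500 bp of the TSS (horizontal axis), for lone lncRNA, near-coding lncRNA and protein-coding promoters, with the number of promoters in the key. The bar for 0 lists holds 81.3% of lone promoters and 21% of near-coding promoters, and the bars from 31 lists upward hold few lone promoters.

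Lone promoters were also thinly covered where they were bound. Of the bound lone promoters 22.7% had exactly 1 list, against 5.28% of bound near-coding and 5.86% of bound protein-coding promoters. Counted over every promoter of the class, bound or not, exactly 1 list was found at 4.26% of lone, 4.17% of near-coding and 3.98% of protein-coding promoters, close to the 4.11% of all promoters. A promoter with at least 31 lists (25% of the lists, the share the study uses to define a high-occupancy site) is called highly bound here. There were 543 highly bound lone promoters (3.52%) in 471 loci, 1497 highly bound near-coding promoters (43.7%) and 7397 highly bound protein-coding promoters (36.9%), against 24.3% of all promoters. Lone promoters had 2.99 ± 10.6 lists on average (SD over promoters), near-coding 28.4 ± 26.5 and protein-coding 24 ± 26.2. The most lists at any promoter was 114 at a lone, 115 at a near-coding and 120 at a protein-coding promoter. The lone maximum was at MIR7-3HG, which had 0 lists when counted by summits. The next lone promoter, ENSG00000260100, had 108 lists by either count.

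The bound share of lone promoters was higher in CpG-rich DNA and fell with distance to a coding gene. A promoter was called CpG-rich when its window had a GC content over 0.5 and an observed-to-expected CpG ratio over 0.6. Only 1420 lone promoters (9.20%) were CpG-rich, against 71.8% of near-coding and 64.8% of protein-coding promoters. Of the CpG-rich lone promoters 58.6% were bound (interval 56.0 to 61.1) and 24.3% highly bound, against 14.7% (14.1 to 15.3) and 1.41% of the 14017 others. CpG-rich near-coding and protein-coding promoters were bound at 86.8% and 86.5%. Within CpG-rich promoters the lone share thus still lay under those of both other classes. Over autosomes it was 58.0 ± 11.5% (mean ± SD), against 86.4 ± 4.36% for near-coding and 86.4 ± 4.12% for protein-coding promoters. The CpG-rich classes still differed in mean GC content, with 61.9% for lone, 63.2% for near-coding and 65.2% for protein-coding promoters.

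The share fell with distance in both CpG classes, but base composition was not held fixed within them. In lone promoters that were not CpG-rich, mean GC content was 48.7% at 2 to 5 kb and 43.4% over 100 kb. In CpG-rich ones it was 62.5% and 61.5%. Whether distance or base composition accounts for the fall was not tested. Among lone promoters that were not CpG-rich, 28.0% were bound at 2 to 5 kb from the nearest protein-coding TSS, 21.4% at 5 to 20 kb, 16.2% at 20 to 100 kb and 7.95% over 100 kb. For CpG-rich lone promoters the shares were 68.5%, 63.6%, 59.97% and 46.9%, and the intervals of the outer bins (60.6 to 75.4 and 41.7 to 52.2) did not overlap. Position relative to coding genes went with smaller differences: 19.5% of 10099 intergenic lone promoters were bound, 18.1% of 3866 inside a coding gene on its opposite strand and 15.4% of 1472 inside a coding gene on its own strand. Of the lone promoters, 1386 have a start of a non-canonical coding transcript within 2 kb, of which 30.4% were bound, against 17.6% of the 14051 without one.

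**Figure D2:**
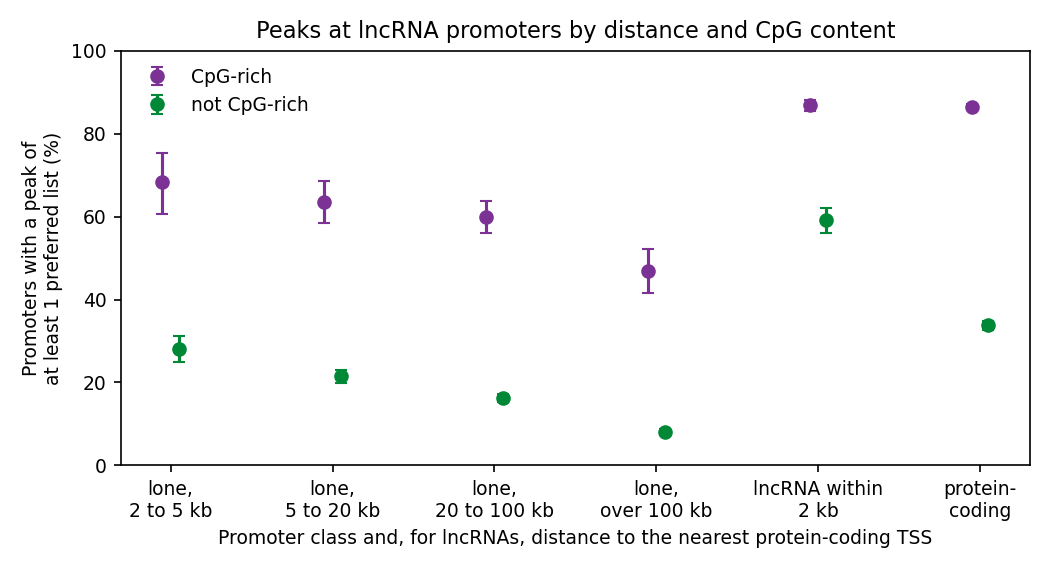
Percent of promoters with a peak of at least 1 preferred list (vertical axis, points with 95% Wilson intervals) for lone lncRNA promoters in 4 bins of distance to the nearest protein-coding TSS, for near-coding lncRNA and for protein-coding promoters. CpG-rich lone promoters fall from 68.5% to 46.9% with distance and the others from 28.0% to 7.95%.

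The same contrast was present list by list. A preferred list had a peak at 0.0259% to 10.7% of lone promoters (median 2.0%), and at a median of 18.3% of protein-coding promoters. The lone share was lower in 121 of 121 lists, by 17.4 percentage points on average (2.47% against 19.8%, SD of the difference 11.5, n = 121 lists). A two-sided sign-flip permutation test over lists gave p = 1e-05, the smallest that 100000 permutations can give, and an adjusted p of 1.4e-05 over 7 tests. Lists share promoters and input libraries, so they are not independent samples of DAPs. Within the 8 input libraries that serve at least 6 lists the mean difference was between -27.0 and -8.35 percentage points. Among CpG-rich promoters alone, the log2 ratio of the lone share to the protein-coding share was -1.04 ± 0.17 (SD, 117 lists with at least 10 bound promoters in each class; negative in 117; sign-flip permutation p = 1e-05, adjusted p = 1.4e-05). The median list thus bound CpG-rich lone promoters at 48.8% of the rate of CpG-rich protein-coding promoters, and promoters that were not CpG-rich at 20.5% (114 lists).

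Near-coding promoters were bound by more lists than the average protein-coding promoter and by fewer than their own coding neighbours. In 121 of 121 lists the near-coding share was above the protein-coding share, by 3.67 ± 2.18 percentage points (23.5% against 19.8%; sign-flip permutation p = 1e-05, adjusted p = 1.4e-05), and by 2.0 to 5.23 points on average within the 8 input libraries. The sign depended on where the border was drawn: the mean difference was 7.16 points with a border of 1 kb, -0.42 with 5 kb, and -1.77 when the starts of all coding transcripts were used. The 3422 protein-coding promoters with an lncRNA TSS within 2 kb were themselves bound more often than the 16611 without one (82.4% against 65.0%). Of the former 85.4% were CpG-rich and of the latter 60.5%, and within CpG-rich promoters the shares were 87.4% and 86.3%.

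The gap in mean list count between an lncRNA promoter and its coding neighbour grew with distance. At 0 to 250 bp (1491 pairs) the lncRNA had 35.9 lists on average and the coding promoter 36.1, and above 250 and up to 500 bp (687 pairs) 35.4 and 36.3. Windows overlap up to 1 kb, so these counts can hold the same peaks, and which peaks a pair shared was not counted. Above 500 and up to 1000 bp (635 pairs) the means were 22.1 and 27.2, and above 1000 and up to 2000 bp, where windows no longer overlap, 9.13 and 23.1 (616 pairs, SD of the difference 24.6). In the last bin the coding promoter had more lists in 366 pairs, the lncRNA in 86, and 164 were equal; 51 lncRNA promoters had 0 lists beside a highly bound coding promoter, and 2 highly bound lncRNA promoters stood beside a coding promoter with 0. Arrangements differed in their bound and CpG-rich shares: 82.7% of 2103 divergent near-coding promoters were bound (78.3% CpG-rich), 75.5% of 1010 antisense ones that start inside the coding gene, 69.7% of 188 on the same strand downstream of the coding TSS and 59.4% of 128 on the same strand upstream (39.8% CpG-rich).

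Individual loci show both extremes. The near-coding promoters with most lists were ODC1-DT (115 lists, chr2:10448189-10449189, 362 bp from ODC1, which encodes the first enzyme of polyamine synthesis), RANBP3-DT (114, chr19:5977903-5978903), ENSG00000289319 (112, chr12:65168962-65169962, 121 bp from LEMD3), ENSG00000286045 (111, beside GCFC2) and ENSG00000270638 (105, 50 bp from EPM2A). Each had the same number of lists as its coding neighbour. The same LEMD3 promoter with 112 lists stands 1679 bp from a different lncRNA, ENSG00000276853 (chr12:65170762-65171762), which had 3 lists (E4F1, SLC30A9 and ZBTB12). The EPM2A promoter with 105 lists stands 1653 bp from ENSG00000270828, which had 0. The other 3 widest gaps between 1 and 2 kb were ENSG00000260017 (5 lists against 109 at ARL6IP1), HDAC2-AS2 (8 against 106 at HDAC2, a histone deacetylase) and hsa-mir-1253 (1 against 96 at CCDC92B). None of these 5 sparsely bound lncRNA promoters was CpG-rich, while all 5 coding neighbours were. With a window of 1000 bp ENSG00000260017 had 45 lists, HDAC2-AS2 17 and ENSG00000276853 8, so these low counts hold for the narrower window.

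The lone promoter with most lists was MIR7-3HG, host of the microRNA miR-7-3, with 114 of 121 lists (100 TFs and 14 others; chr19:4768633-4769633, 22601 bp from FEM1A, intergenic and not CpG-rich). Only FOSL1, HMGN3, TRIM24, ZBTB47, ZGLP1, ZNF148 and ZNF251 were absent. Its peaks were among the strongest of their lists: ranked by the authors' signal within each list, the median rank was at 99.8% and 111 of 114 were in the top 10%. Their summits, however, lay 559 bp downstream of the canonical TSS (middle range 551 to 571), and 0 of 114 within 500 bp. Counted by summits MIR7-3HG had 0 lists, and with a window of 1000 bp 118.

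The other 9 of the 10 most bound lone promoters had 95 to 108 lists. ENSG00000260100 (108 lists, chr9:37079276-37080276, counted together with EBLN3P within 1 kb) had 108 summits in the window. MIA2-AS1 (105, chr14:39266561-39267561) starts inside MIA2 on the opposite strand, and 25 bp from the start of a non-canonical coding transcript of the annotation. ENSG00000267095 (103, chr17:60139581-60140581) stands 9892 bp from CA4, whose own promoter had 1 list. SNHG17 (102, chr20:38434881-38435881) and SNHG11 (99, chr20:38445843-38446843) are neighbouring hosts of small nucleolar RNAs, which guide chemical marks on ribosomal RNA. ENSG00000276407 (97, counted with LINC02028), LINC02916 (97), MIR762HG (97) and WASH2P (95) followed; WASH2P belongs to a family of near-identical gene copies, so its reads may stem from other copies. Across these 9 the peaks' median ranks were at 89.3% to 97.5% of their lists, and 94 or more summits fell inside each window. The short lists SCMH1 (195 peaks) and ZBTB22 (297) were absent from MIA2-AS1, ENSG00000267095, SNHG17 and SNHG11, and TRIM24 from the last 3 of these. The lone promoters that were not CpG-rich and had most lists were MIR7-3HG, SNHG11, ENSG00000276407, ENSG00000267649 (94) and ENSG00000274949 (87, but 13 when counted by summits).

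Gene families were read beside the 18.7% bound and 3.52% highly bound of all lone promoters, with no test. Of 20 lone SNHG genes 16 were bound and 13 highly bound (49.1 ± 37.7 lists, SD over genes), and 80.0% were CpG-rich; of all CpG-rich lone promoters 58.6% were bound and 24.3% highly bound. Of 74 lone microRNA hosts 29 were bound and 10 highly bound, of 1109 antisense genes named -AS 23% were bound, of 2200 LINC genes 18.9%, and of 11177 genes with no symbol 17.5%, the last 2 close to the share of all lone promoters. A promoter of a gene with 1 exon was bound in 22.7% of 2264 cases and with several exons in 18.1% of 13173.

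Well-known lncRNAs were read from 4 gene lists, beside the 29.7% bound and 10.8% highly bound of all 18866 lncRNA promoters and with no test. In the list of nuclear and housekeeping lncRNAs 18 of 19 genes matched, 16 were bound and 15 highly bound (median 65.5 lists). Most of these 18 promoters were CpG-rich, against 20.6% of all lncRNA promoters, and 16 were lone. Of all CpG-rich lone promoters 58.6% were bound and 24.3% highly bound. ZFAS1, a near-coding small nucleolar RNA host, had 96, NORAD 91 (an abundant cytoplasmic RNA that binds PUMILIO proteins), SNHG1 89, NEAT1 79 (the scaffold of nuclear paraspeckles) and MALAT1 51 (an RNA of nuclear speckles). SNHG1 stands 16332 bp from the canonical TSS of WDR74 but 82 bp from the start of another coding transcript. CYTOR and SNHG15 had 0, with the nearest summit of any list 11458 and 9871 bp away, and SNHG12 had 2 at its canonical start and 75 over all its annotated starts, the widest gap in the list.

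Of the 10 liver lncRNAs, most had no listed peak. Of these genes 4 were bound, all highly. HULC, a near-coding lncRNA abundant in liver cancer, had 70 lists. Its canonical start lies 488 bp from that of SLC35B3, which had 72, and their windows overlap. Others were LINC00261 (58, 5930 bp from FOXA2, a liver pioneer factor) and HNF4A-AS1 (33, 40007 bp from HNF4A, the gene of a liver TF). FAM99A, FAM99B, LINC01018, LINC01554, LINC00844 and H19 had 0 at the canonical start; over all starts LINC01554 had 29 and LINC00844 2, and the nearest summit of any of the 127 lists lay 12956 bp from the canonical start of H19. Whether the regions of H19, SNHG15 and CYTOR were open to peak calling in these lists was not tested, so these counts of 0 are not read as absence of binding. With a score of 830 or more HULC had 43 and LINC00261 37. Of 13 matched cancer lncRNAs 6 were bound and 3 highly bound: KCNQ1OT1 (80, the imprinted antisense RNA inside KCNQ1), DLEU2 (62) and PVT1 (35). DLEU2 fell under the 31 lists of a highly bound promoter by summits (26) and with a score of 830 or more (26), and PVT1 with that score (17). CRNDE, UCA1 and HOTAIR had 0, and LINC-PINT had 17 at its canonical and 58 over all its starts. Of 13 matched lncRNAs of other tissues, 10 of them lone, 11 had 0, a share near that of all lone promoters (81.3% with 0 lists). Among them were LINC-ROR, SAMMSON and MIAT, the last with 9 lists in a window of 1000 bp. The exceptions were HAR1A (12, and 3 with a score of 830 or more) and SOX2-OT (47), whose canonical start lies 34 bp from that of DNAJC19, which also had 47.

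**Figure D3:**
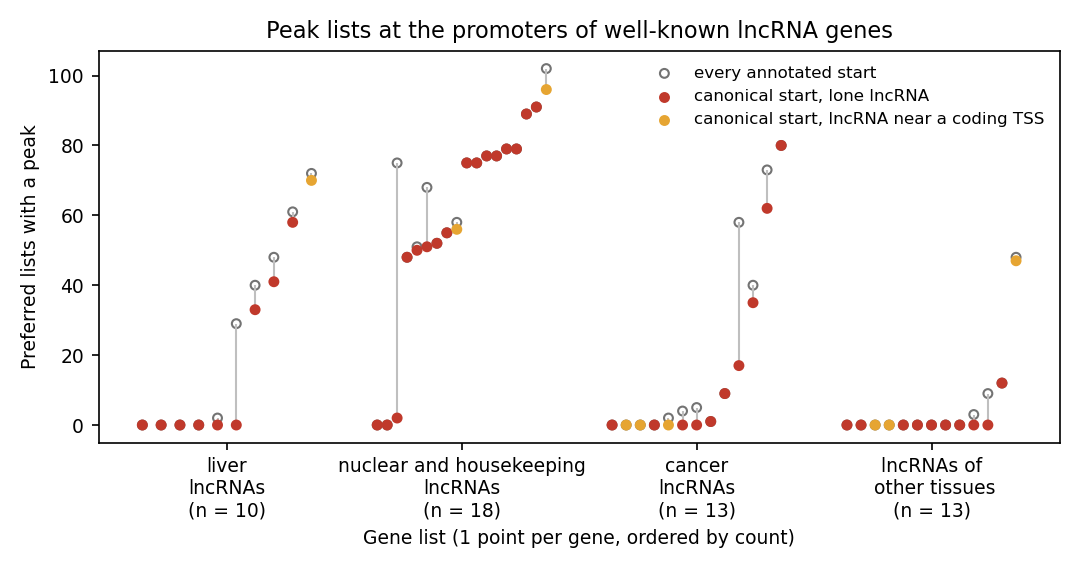
Number of preferred lists with a peak (vertical axis) at each matched gene of 4 gene lists (horizontal axis, 1 point per gene in order of its count). Filled points are the canonical start, coloured by class, and open circles joined by a line count every annotated start of the gene; SNHG12 moves from 2 to 75 and most genes of other tissues lie at 0.

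No list favoured lone over protein-coding promoters, so lists were compared with the median list. For each list the lone share was divided by the protein-coding share. The median of 119 lists was 11.1% (log2 ratio -3.18), and the ratio ran from 6.51% for GLMP to 34.5% for TRIM24; CENPX and SCMH1 had under 10 lone promoters and were left out. A list was called enriched when its ratio exceeded the median by more than its 95% counting interval and in at least 18 of 22 autosomes, which held for 22 lists (18.5%); 12 (10.1%) were low by the mirrored rule. With the 500 strongest peaks of each list 0 lists were called enriched, and with the other alternatives 18 to 26 were. The call went with list length: 20 of the 22 enriched lists had more peaks than the median list. Enriched lists had a median of 23263.5 peaks and low lists 5592.5, against 8680 over all preferred lists.

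TRIM24, a chromatin reader and nuclear receptor coregulator that is not counted as a TF, led with 123 lone promoters (0.797% against 2.31% of protein-coding promoters, ratio 34.5%, interval 28.3 to 42.0). FOSL1, an AP-1 subunit, followed at 21.3% (18.7 to 24.3; 249 lone promoters), then ZFHX3 (21%), ZNF646 (19.8%) and SALL1 (19.4%, 1652 lone promoters, the most of any list). The nuclear receptor coactivator NCOA2 (19.2%), ZBTB12 (18.6%), the repressor HIC2 (18.5%), ZMYM2 (18.1%) and the MAX partner MGA (17.3%) completed the 10 highest. The other enriched lists were ZNF865, ZMYM4, the octamer factor POU2F1, ZFP91, ZNF219, MEIS1, SMAD7, the Mediator subunit MED12, the elongation factor AFF1, E2F8, ZSCAN25 and ZNF430. At the low end stood GLMP (6.51%, 4.97 to 8.53), THAP1 (6.58%, 5.49 to 7.89), the ETS factor ELK4 (7.72%), FAM200B (7.81%) and the homeodomain factor PBX3 (7.91%). GLMP and FAM200B did not meet the autosome rule.

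**Figure D4:**
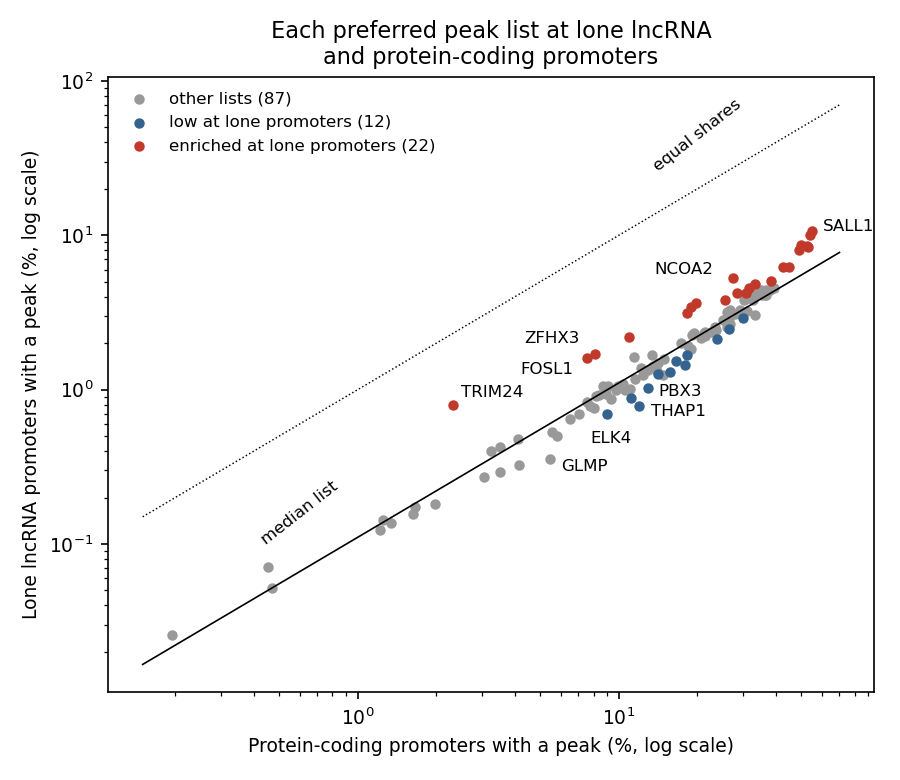
Percent of lone lncRNA promoters (vertical axis, log scale) against percent of protein-coding promoters (horizontal axis, log scale) with a peak, 1 point per preferred list. The dotted line marks equal shares and the solid line the median ratio; all 121 lists lie under the dotted line, TRIM24 lies farthest above the solid line, and red and blue points are the 22 enriched and 12 low lists.

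The enriched lists had a larger share of their peaks far from coding genes, and among those distal peaks a smaller share at lone promoters. Both follow in part from how the lists were chosen, because lone promoters lie over 2 kb from a protein-coding canonical TSS by definition. The enriched lists had a median of 63.4% of their summits over 2 kb from every protein-coding TSS, the low lists 27.8% and the lists that were not enriched 39.4%. Of these distal summits the median list had 7.47% at a lone promoter (range 2.16% to 16%), while lone windows cover 0.50% of that sequence. On this measure the order turned: 22 of 22 enriched lists lay under the median list and 12 of 12 low lists above it. The highest shares were those of ELK4 (16%, interval 13.2 to 19.3), MED13L (13.7%), ZNF593 (13.6%), KLF15 (13.3%) and PBX3 (13.3%), and the lowest those of SCMH1 (2.16%), ZNF865 (2.41%), TRIM24 (2.75%), ZNF334 (2.89%) and ZFHX3 (2.97%). Within CpG-rich promoters 21 of the 22 enriched lists stayed above the median list. TRIM24 lay just below it (ratio 48.2% against a median of 48.8%). Within the other promoters 22 of 22 lay above the median list. The lists were chosen by their ratio over these same promoters, so these counts are no further evidence for the calls.

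Longer lists had higher ratios. List length and reach outside coding promoters go together in part by construction, so the tests below do not show a trait of the DAPs. Across 119 lists the log2 ratio rose with the log10 number of peaks (r = 0.48 by Pearson and rho = 0.63 by Spearman, both with a permutation p of 1e-05 and an adjusted p of 1.4e-05), and r was 0.55 without the 2 lists farthest from the median length, ZBTB22 and ZNF853. Within the 8 input libraries with at least 6 lists r was 0.15 to 0.95 and above 0 in 8, and rho was -0.21 to 0.94 and above 0 in 6. Of these, 2 passed 0.05 for r and 3 for rho by permutation tests, exact for under 10 lists, with no adjustment. The 42 ZNF-named TF lists (-3.19 ± 0.25, SD) and the 63 other TF lists (-3.13 ± 0.38) differed in log2 ratio by -0.05, which the permutation test did not separate (p = 0.44, adjusted p = 0.44). The 14 DAPs that are not TFs (-2.94 ± 0.54) and the 105 TFs (-3.15 ± 0.33) differed by 0.21 (permutation p = 0.044, adjusted p = 0.0513), which missed the threshold of 0.05 after adjustment. Without TRIM24 the difference was 0.10 (p = 0.31), and without any other of the 13 it was 0.17 to 0.26 (p = 0.014 to 0.1).

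Summits at lone promoters gathered at the TSS, though less tightly than at coding promoters. Of 94216 summits within 2 kb of a lone TSS, 33.9% lay within 250 bp, against 51.4% of 795317 at protein-coding and 39.0% of 185550 at near-coding promoters, where an even spread would give 12.5%. The densest 50 bp bin was just downstream of the TSS in all 3 classes. In mean signal rank within its list (100 is the strongest peak) a lone-promoter peak stood at 51.4 ± 4.21 (mean of the lists' medians ± SD, 119 lists), a protein-coding one at 53.6 ± 6.0 (121 lists) and a peak at no promoter at 46.3 ± 3.45. Lone-promoter peaks ranked above peaks at no promoter in 101 lists, and protein-coding peaks ranked above lone-promoter peaks in 87 of 119.

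**Figure D5:**
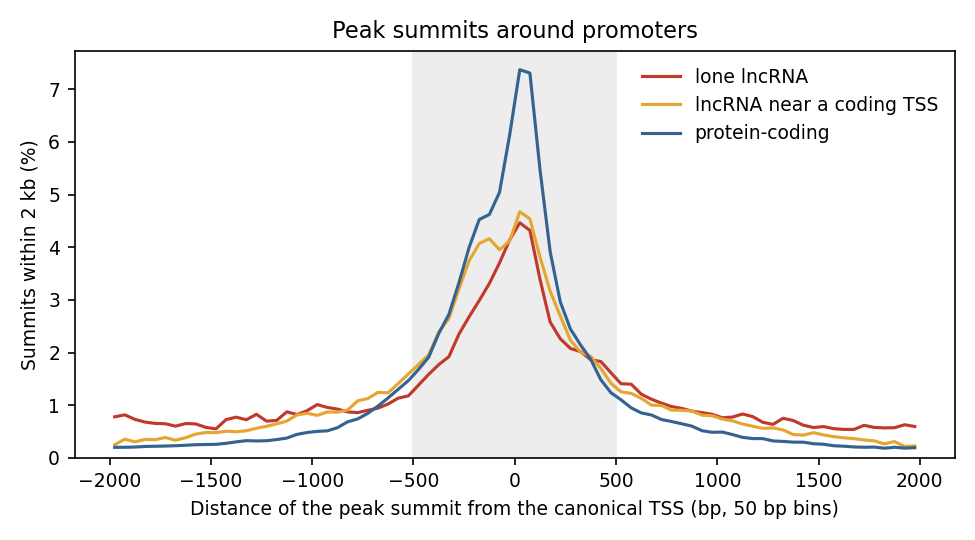
Percent of the peak summits within 2 kb of a TSS (vertical axis) by distance from it (horizontal axis, bp in 50 bp bins, negative upstream), for the 3 promoter classes over all preferred lists; the shaded band is the promoter window. Protein-coding promoters peak at 7.37% of summits in the bin after the TSS and lone promoters at 4.47%.

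Several sequence motifs, like CpG-rich windows, were less frequent in lone than in protein-coding promoters, and others were about equally or more frequent. In the 300 bases from 250 before to 50 after the TSS, the GC box was present in 14.5% of lone, 59.6% of near-coding and 61.3% of protein-coding promoters (42.6% of all), and the ETS motif in 3.15%, 13.2% and 14.1% (9.67% of all). In highly bound lone promoters these shares were 57.1% and 13.1%, against 76.4% and 25% in highly bound protein-coding promoters. The AP-1 motif, bound by FOS and JUN proteins, ran the other way, with 11.2% of lone and 5.44% of protein-coding promoters (7.62% of all), and 9.02% against 3.19% among the highly bound. It was in 11.6% of lone promoters with 0 lists. Within CpG-rich promoters it was in 3.94% of lone and 2.92% of protein-coding ones. The TATA box was in 18% of lone and 9.71% of protein-coding promoters (12.7% of all) but in 5.34% of highly bound lone promoters. NRF1, E-box, CRE and YY1 motifs were each less frequent in lone than in protein-coding promoters (1.09% and 4.27%, 4.92% and 8.76%, 0.589% and 2.69%, 1.61% and 4.04%; 2.97%, 7.17%, 1.80% and 2.96% of all). Among highly bound promoters the CRE was not lower in lone ones (4.42% against 4.10%). CCAAT was in 36.2% of lone and 36.1% of protein-coding promoters (35.7% of all), and within CpG-rich promoters in 25.6% and 35.1%. The octamer and HNF4 motifs were rare (2.23% and 1.62%, 1.81% of all, for the octamer; 0.428% and 0.319%, 0.350% of all, for HNF4).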

How the data were processed

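ChIP-seq peak lists of HepG2 were used for 127 FLAG-tagged DAPs, with 24 input libraries entering only as labels of which lists share a control. The authors made the lists with the pipeline of the ENCODE consortium run locally, keeping its optimal set, on hg38 (build per the labels), with aligner and caller not given in the sources used here. In the deposited lists the score reflects how well replicate rankings match. The signal in the deposited lists is an enrichment over that list's input with no scaling across lists, and here gave only each peak's rank in its list. Another deposited score column, a q column with negative values in several lists, was not used. Depth is unknown.

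TSSs came from GENCODE 44 canonical transcripts. A list was counted at a promoter where any base of a peak overlapped the window. Repeated rows for the same place (5301 in 43 lists) did not add to counts, and 0 peaks lay beyond a chromosome end. Comparisons over lists used two-sided permutation tests with 100000 permutations, exact for under 10 lists, with Benjamini-Hochberg adjustment over 7 tests, using scipy 1.17.1, pandas 2.3.3 and numpy 2.4.6 under Python 3.11.15; promoters were never the unit of a test. Methods were tested on simulated data. Named promoters were the 10 lone, 5 CpG-poor lone and 5 near-coding ones with most lists, the 5 widest gaps to a coding neighbour at 1 to 2 kb, and the 3 highest and 2 lowest of each gene list; others named in a gene list were chosen after their values were seen. Named DAPs were the 10 highest and 5 lowest ratios and the 5 highest and 5 lowest distal shares. The promoters, gene lists and rules were chosen with earlier results of these data known. A named promoter and a sequence that these rules select are not reported here. Of the gene lists, TUG1, CCAT1, TINCR and TUNAR were not matched and are not analysed here. Alternatives changed the part of the peak, the score, the window, the border between classes, the lists and the genes.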

Additional observations from a re-analysis of the deposited data

Results flagged for a closer look

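The 6 non-preferred lists entered no comparison, and 5 of them had peaks at lone promoters above the limit that a count of 0 allows (3 promoters, 0.0194% of the 15437). This limit is low: SCMH1, the shortest preferred list with 195 peaks, also passed it with 4 lone promoters. EP300, a histone acetyltransferase of enhancers, had 517 lone promoters (3.35%, against 16.6% of protein-coding promoters). ZNF431 had 476, TSC22D2 387, ZZZ3 376 and ZCCHC11 (TUT4) 272, while GPBP1L1, a list of 73 peaks, had 2.

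The ratio of lone to protein-coding promoters differed between the 14 DAPs that are not TFs and the 105 TFs by 0.21 on the log2 scale before adjustment (permutation p = 0.044, adjusted p = 0.0513). TRIM24, ZMYM2, ZMYM4, SMAD7, MED12 and AFF1 are the non-TF DAPs among the 22 enriched lists. Without TRIM24 the difference was 0.10 (p = 0.31).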

How the results depend on the processing

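The lower share at lone than at protein-coding promoters held its sign under every alternative run, with a mean difference of -18.2 to -10.3 points, and -1.28 with the 500 strongest peaks; its p of 1e-05 is the smallest possible and does not measure stability. The CpG-rich log2 ratio was -1.06 to -0.80. The higher near-coding share turned to -0.418 points with a border of 5 kb and -1.77 with all coding transcripts. The share of bound lone promoters was 16.5% by summits, 16.9% by the central 100 bp, 14.2% with a score of 830 or more, 3.61% with the 500 strongest peaks, 16.7% and 22.3% with windows of 250 and 1000 bp, 20.1%, 17.7% and 17.6% with borders of 1 kb, 5 kb and all coding transcripts, 16.7% without the 5 longest lists and 21% over every annotated start of the gene, the last chosen after seeing the data. In the same order the near-coding share was 75.9%, 76.5%, 73.7%, 34.3%, 76.2%, 82.9%, 84.4%, 69.3%, 65.0% and 77.3%. The difference between DAPs that are not TFs and TFs was 0.22 (p = 0.1) with a score of 830 or more, 0.24 (p = 0.21) with the 500 strongest peaks, 0.21 (p = 0.051) with a border of 5 kb, 0.21 (p = 0.088) permuted within input libraries and 0.10 without TRIM24, the last added after seeing the data. With the 500 strongest peaks 0 lists were enriched; with a score of 830 or more 18 were, all among the 22. No other alternative changed the call of a tested comparison. Of 42 named promoter counts, 23 moved with the score of 830 or more, 11 with the window of 250 bp, 6 by summits, 6 by the central 100 bp and 4 with the window of 1000 bp. No paired analysis was possible because each DAP has 1 list and the labels give no replicate numbers to serve as a block between samples; the comparisons within lists pair promoter classes, not samples. Unknown depth and the absence of replicate lists limit what an unbound promoter shows.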

Other observations

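ZNF865 stood apart among the lists that were alone at a lone promoter. Of the 657 lone promoters with exactly 1 list, 93 had ZNF865, 74 ZBTB12 and 64 SALL1, while ZNF865 has 22769 peaks and the other 2 have 57621 and 61748. These 93 were 19.2% of the lone promoters of ZNF865, against a median of 0.469% over the lists. At protein-coding promoters ZNF865 was alone at 136 of 3666 (3.71%), against a median of 0.0306%. FOSL1 was alone at 17 of its 249 lone promoters (6.83%) and at 2 of 1515 protein-coding promoters (0.132%).

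The RE1 letters (TTCAGCACC, 2 to 9 bases, GGACAG, on either strand) are rare. Within 1000 bp of the TSS they were present at 73 of 38899 promoters (0.188%) and at 8 of 15437 lone promoters (0.0518%). ENSG00000267095, with 103 lists, held them with 7 bases between the parts. Of the 543 highly bound lone promoters 3 held them (0.552%), and of 7397 highly bound protein-coding promoters 21 (0.284%). With at least 61 lists the counts were 3 of 144 lone (2.08%) and 11 of 2270 protein-coding promoters (0.485%). The letters were chosen after sequences of the most bound lone promoters had been read. A higher share among highly bound lone promoters was thus in part built in, and the shares describe these promoters only. A REST list is not analysed here.

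Some counts depended on which start of a gene was taken. Of the 15437 lone genes 4854 have more than 1 annotated start, and 345 with 0 lists at the canonical start had a list at another start over 2 kb from a coding TSS. Highly bound lone genes numbered 543 by the canonical start and 627 by all such starts.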
